A study of Rattus norvegicus with 6 samples.

Results

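Oxidative phosphorylation and the citric acid cycle were followed through a list of 50 genes in the aorta of rats that ran voluntarily and of rats that did not. The list names 4 subunits of complex I, 4 of complex II, 5 of complex III and its partner cytochrome c, 11 of complex IV, 12 of ATP synthase, 10 enzymes of the cycle and 4 genes of the pyruvate dehydrogenase complex. A probe set, a group of short probes that together report 1 transcript, counted for a gene when the platform annotation gave that gene as its only symbol. By that rule 35 of the 50 genes were measured, by 60 of the 8799 probe sets on the chip. Cycs, Cox7a2, Atp5mc1 and Atp5mc2 lay only on probe sets given to several genes, and Sdhb, Sdhc, Sdhd, Uqcrc1, Atp5mc3, Atp5me, Idh3a, Idh3b, Ogdh, Fh and Dld were not matched to a probe set.

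All arrays came from 1 strain, the spontaneously hypertensive rat (SHR), which is bred for inherited high blood pressure, and no normotensive strain was included. The runners ran at will in a wheel for 5 weeks and the non-runners did not run, and the comparison asks how running alters transcripts of the vessel. RNA of 3 pooled aortae went on each chip, and there were 3 chips (arrays A, B and C) per group. The labels give neither age nor sex nor how animals were assigned to pools, so a p-value here reflects how much pools differ, for technical or other reasons, and not the spread of single animals.

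The respiratory chain passes electrons from NADH and succinate through complexes I to IV to oxygen and pumps protons across the inner mitochondrial membrane. ATP synthase lets the protons back and makes ATP. The citric acid cycle supplies the NADH and succinate from acetyl-CoA, and the pyruvate dehydrogenase complex makes that acetyl-CoA from the pyruvate of glycolysis. Most subunits are encoded in the nucleus, and several subunits of complex IV have separate isoforms in striated muscle, brown fat or lung. Smooth muscle of large arteries uses both glycolysis and oxidative phosphorylation, whereas the brown fat that surrounds the rat aorta is packed with mitochondria.

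Values are deposited intensities, treated as being on a linear scale, and differences are runner minus non-runner on a log2 scale after quantile normalization. They carry no read depth, so the number of arrays limits the precision. A control level of 40.8, the 95th percentile of 19 control probe sets whose targets should be absent from rat RNA, was used as a guide to background. Of the 60 probe sets, 54 lay above it on all 6 arrays and 3, one each of Ndufv3, Cox6a2 and Cox6c, lay below it on all of them. Array medians ran from 28.5 to 32.2. Non-runner B stood apart, with a 3'/5' ratio of the beta-actin control of 2.14 against 1.22 to 1.67 elsewhere, and of the GAPDH control of 1.95 against 1.11 to 1.39. That ratio grows as signal from the 5' end of a transcript is lost. Smooth muscle markers were present as the labelled tissue requires, with 10 of 10 measured genes above the control level and summed intensities of 19398 to 22788 in non-runners and 19472 to 20637 in runners. Summed markers of red blood cells (1521 to 2003 in non-runners, 2212 to 4484 in runners), endothelium (576.5 to 712 and 558 to 563) and nerve (1349.7 to 1590.4 and 1053 to 1197) did not overlap between the groups. The endothelial markers Edn1, Icam2, Kdr and Vwf and the nerve markers Dbh, Mbp and Nefm lay below the control level on all arrays. Differences were below 0 for 6 of 7 tested endothelial markers (not Pecam1) and 5 of 5 of nerve. Of red blood cell markers, 1 of 4 (Slc4a1) was below 0. The part of these cells in the members' values was not tested.

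No gene of the list differed between runners and non-runners past the threshold. By limma with Benjamini-Hochberg adjustment over all 5244 tested probe sets, 0 of 58 tested member probe sets had an adjusted p under 0.05, against 0% of all probe sets, and the smallest adjusted p among the members was 0.572. At an unadjusted p under 0.05, limma placed 5 member probe sets higher in runners and 1 lower, which is 8.62% and 1.72% of them against 3.87% and 4.21% of all probe sets. Taking the brightest tested probe set of each gene, 24 of the 35 genes had a difference above 0 against 46.3% of all 3173 tested genes, and their median was 0.05 against -0.02. The intensities of 2 genes did not overlap between the groups with runners higher (Pdhb and Dlat) and of 2 with runners lower (Atp5f1c and Cox4i1), against 6.15% and 8.13% of all genes. Among probe sets these counts were 5 and 2 of 58, against 7.38% and 7.49%. Without non-runner B, 18 of 35 genes lay above 0 against 49.4% of all genes, and the median was 0.01. Without runner A the count was 17 of 35 and the median -0.0029, whereas it was 25 of 35 and 0.09 without non-runner C and 26 of 35 and 0.17 without runner C. In a bulk sample, a change in the number of cells of a type and a change of RNA per cell cannot be told apart.

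**Figure D1:**
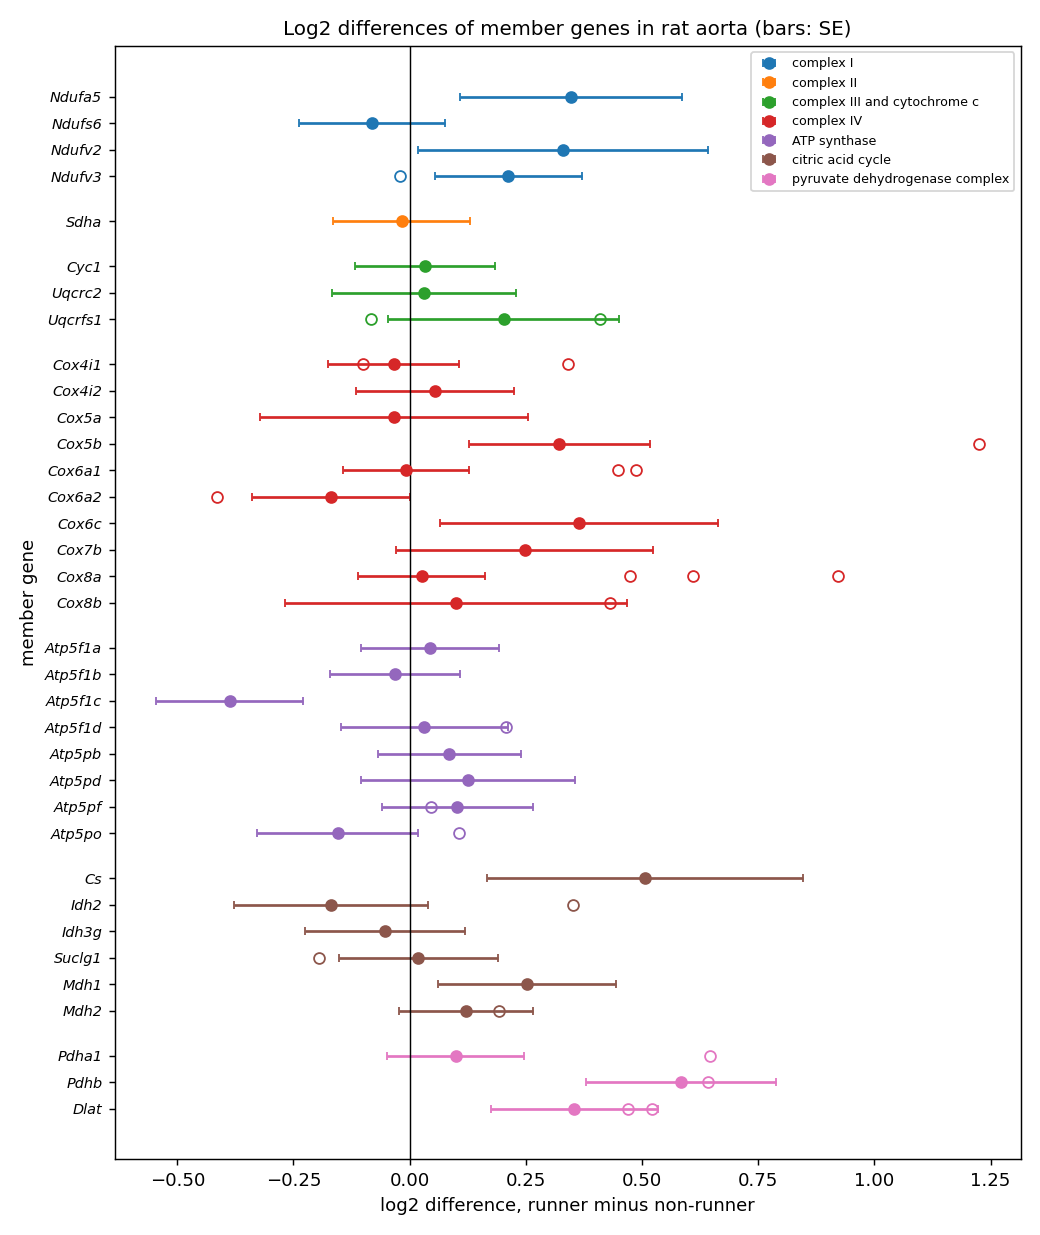
Log2 difference between runner and non-runner arrays (x axis) for each of the 35 measured genes (y axis), coloured by complex or pathway. Filled points with SE bars are the brightest tested probe set of a gene and open points its other tested probe sets. The brightest probe sets run from -0.39 (Atp5f1c) to 0.58 (Pdhb), and the open points farthest to the right belong to Cox5b and Cox8a.

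Promoters were searched for the motif of nuclear respiratory factor 1, a transcription factor known for driving respiratory chain genes. The motif, the letters GCGCA, any base and then GCGC (read from the other strand, GCGC, any base and then TGCGC; a place that fits both counts as 1), was sought from 250 bases before to 50 bases after each gene's start in the RefSeq table of assembly GRCr8. It was found in 11 of the 44 member promoters in that table, or 25.0%, and in 4.25% of all 33469 promoters. Member promoters were also richer in G and C, with a median of 58.8% against 51.7%. Among promoters with at least 60% G and C, 5 of 20 member promoters held the motif, against 10.6% of 8777. By group it occurred in 3 of 4 promoters of complex I, 5 of 11 of ATP synthase, 1 of 4 of complex II, 1 of 4 of complex III and cytochrome c, 0 of 9 of the cycle, 0 of 8 of complex IV and 1 of 4 of the pyruvate dehydrogenase complex. The 1 in that last group was Dld, which was not measured, so none of the 3 measured pyruvate dehydrogenase genes had these letters in the window. The motif with 10 bases on each side is shown for the 6 measured genes that hold it, with the motif in capitals, because they take in the complex I and ATP synthase genes described later. Sdha held it at 3 places, of which the one farthest upstream is shown.
Ndufa5, chr4:53971248-53971277, minus strand: cgtatgagctGCGCAGGCGCaaatctctcc
Ndufs6, chr1:31797364-31797393, plus strand: cgaatgctgtGCGCCTGCGCcggcgctctg
Ndufv3, chr20:9613737-9613766, plus strand: cagaatgcgcGCGCAAGCGCttggccccac
Sdha, chr1:30764454-30764483, plus strand: cgtttgcagaGCGCAGGCGCaccaccactc
Atp5f1c, chr17:73333667-73333696, plus strand: ccgagctcccGCGCACGCGCagtgagcctc
Atp5po, chr11:44657523-44657552, minus strand: acgccgacgcGCGCATGCGCtctggcatca
These genes did not share a direction in the arrays. Among the 6, Ndufa5 and Ndufv3 had positive differences and Atp5f1c, Atp5po, Ndufs6 and Sdha negative ones, as given with each complex.

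The genes of the pyruvate dehydrogenase complex had the largest median difference of the 7 groups, 0.35 over 3 measured genes, and all 7 of their probe sets were higher in runners. Limma gave an unadjusted p under 0.05 for 4 of the 7, against 3.87% of all probe sets in that direction, and an adjusted p under 0.05 for 0. Both probe sets of Pdhb, and 2 of the 3 of Dlat, share a source sequence, so these are not 7 separate measurements. Pdhb, the beta subunit of the decarboxylating E1 enzyme, measured 305, 283 and 351 on non-runner arrays A, B and C, and 530.4, 542 and 356 on runner arrays A, B and C. Runner C lay just above non-runner C, the highest of the non-runners, so the groups were apart by a narrow margin. The difference was 0.58 ± 0.20 (log2, SE, n = 3 per group), with a limma adjusted p = 0.572. A dimmer probe set from the same sequence measured 77.7, 72.6 and 73.7 in non-runners and 139.6, 146 and 82.9 in runners (0.64 ± 0.24), again with runner C nearest to the non-runners.

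Dlat, the E2 subunit that hands the acetyl group to coenzyme A, measured 633, 444 and 606 in non-runners and 663, 783 and 672 in runners in its brightest probe set. The groups did not overlap, with non-runner B the lowest array, and the difference was 0.35 ± 0.18 (limma adjusted p = 0.649). Its other probe sets measured 237, 204 and 303 in non-runners and 330.3, 399.6 and 300.2 in runners, and 118, 67.1 and 145 in non-runners and 167, 152 and 139 in runners. In each of these the groups overlapped, with non-runner C above runner C, and the differences were 0.47 ± 0.20 and 0.52 ± 0.27. Pdha1, the alpha subunit of E1 that carries the regulatory phosphorylation sites, measured 1023, 1108 and 1044 in non-runners and 1213, 1199 and 969 in runners in its brightest probe set (0.10 ± 0.15), with runner C the lowest array. Its second probe set measured 373, 208 and 386 in non-runners and 487, 534 and 447 in runners (0.65 ± 0.25), without overlap and lowest on non-runner B.

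All 7 probe sets kept a positive difference in every alternative that left out 1 array or added a covariate. Their number with an unadjusted p under 0.05 by limma was 1 without non-runner A, 1 without non-runner B, 4 without non-runner C, 0 without runner A, 0 without runner B and 4 without runner C. In the same order, 5.28%, 4.16%, 4.54%, 2.21%, 2.35% and 2.54% of all probe sets were higher at that level. The number was 0 with the beta-actin ratio as a covariate and 6 with the brown fat marker sum described later, against 2.73% and 7.44% of all probe sets. The median over the 7 was 0.52, and it was 0.50 without runner A, 0.47 without runner B and 0.33 without non-runner B. Taking the brightest probe set alone, Pdhb was past that level in the full set but not without non-runner A, non-runner B, runner A or runner B. Without non-runner B the differences of the brightest probe sets were 0.52 for Pdhb, 0.21 for Dlat and 0.11 for Pdha1. Pdhx, the subunit that binds E3 to the complex and no member of the list, measured 31.3, 23.2 and 27.0 in non-runners and 42.0, 49.5 and 43.1 in runners. All 3 non-runner arrays of Pdhx lay below the control level, so no fold is given.

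**Figure D2:**
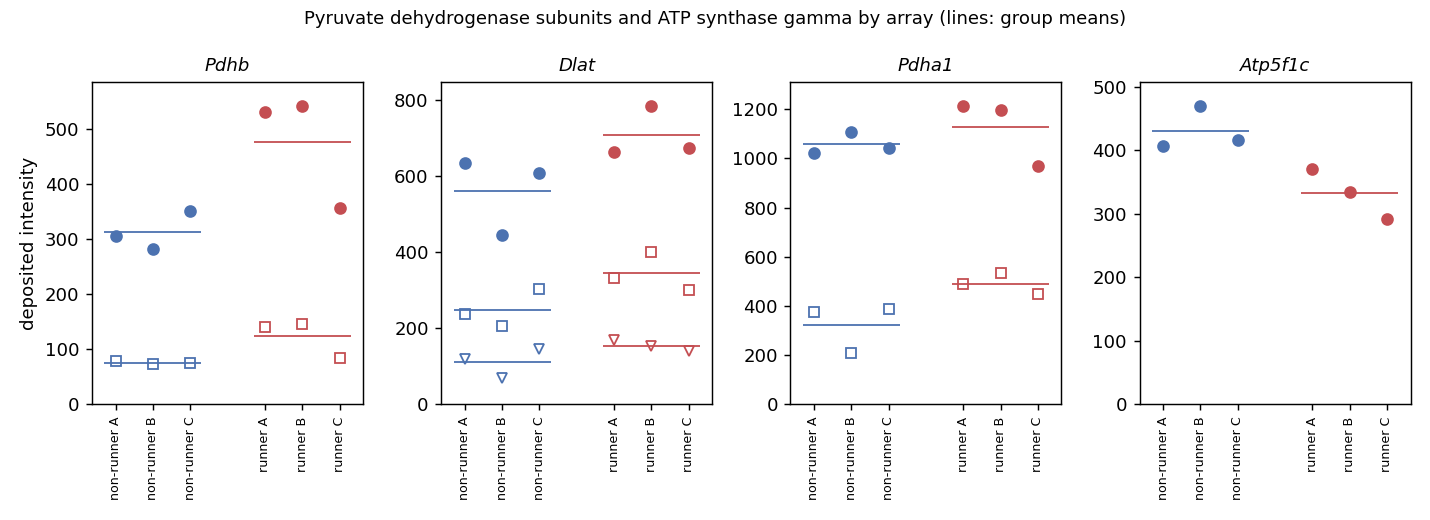
Deposited intensity (y axis, from 0) on each array (x axis) for every probe set of Pdhb, Dlat and Pdha1 and for the single probe set of Atp5f1c. Filled symbols are the brightest probe set, open symbols the others, and horizontal lines group means. Runner C sits lowest of the runners in Pdhb, and the 3 runner arrays of Atp5f1c (291 to 371) lie below the 3 non-runner arrays (406 to 469.5).

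In the citric acid cycle, 4 of 6 measured genes had a difference above 0 and the median was 0.07, with 0 at an unadjusted p under 0.05 by limma against 2.93% of genes higher and 4.44% lower. Leaving out non-runner B gave a median of 0.05, and leaving out runner C one of 0.14. Cs, citrate synthase, which starts the cycle and is often used as a measure of mitochondrial content, measured 189, 76.6 and 163 in non-runners and 214, 226 and 144 in runners. The groups overlapped, and the difference of 0.51 ± 0.34 (limma adjusted p = 0.728) became 0.12 without non-runner B, the lowest array. Mdh1, the cytosolic malate dehydrogenase of the malate-aspartate shuttle, measured 788, 746 and 1149 in non-runners and 1046, 1100.3 and 946 in runners (0.25 ± 0.19). Non-runner C was the highest of its 6 arrays. Mdh2, the mitochondrial form that closes the cycle, had differences of 0.12 ± 0.14 and 0.19 ± 0.17 in its probe sets.

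Idh2, the NADP-linked isocitrate dehydrogenase of mitochondria, gave opposite answers. Its brighter probe set measured 433, 719 and 629 in non-runners and 573, 530.3 and 448 in runners (-0.17 ± 0.21), highest on non-runner B. The dimmer one, from the same sequence, measured 319.8, 149.7 and 264 in non-runners and 342, 334 and 233 in runners (0.35 ± 0.29), lowest on non-runner B. Without that array the differences were -0.01 and 0.04. Idh3g, a regulatory subunit of the NAD-linked enzyme, measured 212, 159.7 and 186 in non-runners and 191, 152 and 191 in runners (-0.05 ± 0.17), with overlapping groups. Suclg1, a subunit of succinyl-CoA synthetase, had probe sets at 0.02 ± 0.17 and -0.19 ± 0.15.

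All 4 listed genes of complex I were measured, with a median of 0.27 and 0 at an unadjusted p under 0.05 by limma. Ndufa5, an accessory subunit, measured 290.4, 171 and 260.4 in non-runners and 352, 316 and 243 in runners (0.35 ± 0.24, limma adjusted p = 0.737). Ndufv2, an iron-sulfur subunit of the NADH-binding module, measured 595, 272 and 636 in non-runners and 637, 609 and 499 in runners (0.33 ± 0.31). Non-runner B was the lowest array for both genes, and runner C the lowest of the runners. Without non-runner B the differences were 0.12 and -0.06, and the median of complex I was 0.07. Ndufv3, another subunit of that module, measured 320.1, 324 and 266 in non-runners and 375, 361 and 309 in runners (0.21 ± 0.16) in its bright probe set. Here non-runner C was the lowest array, and the difference without non-runner B was 0.26. Ndufs6, an accessory subunit that binds zinc, measured 509, 615 and 519 in non-runners and 563, 507 and 461 in runners (-0.08 ± 0.16), highest on non-runner B.

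In complexes II and III, 3 of 4 measured genes had a difference above 0, and 0 had an unadjusted p under 0.05 by limma. Without non-runner B, 0 of the 4 were above 0. Sdha, the flavoprotein of succinate dehydrogenase, which belongs to both the cycle and the chain, was the 1 measured gene of complex II and measured 503, 458 and 482 in non-runners and 498, 510.3 and 426 in runners (-0.02 ± 0.15, limma adjusted p = 0.977). Cyc1, cytochrome c1 of complex III, measured 634, 598 and 709.6 in non-runners and 715, 708 and 581 in runners (0.03 ± 0.15). For both genes the groups overlapped and runner C was the lowest array. Uqcrc2, a core subunit, had a difference of 0.03 ± 0.20. Uqcrfs1, the Rieske iron-sulfur protein, had differences of 0.20 ± 0.25, 0.41 ± 0.34 and -0.08 ± 0.18 in its probe sets. The first 2 of these probe sets come from the same sequence and were lowest on non-runner B, and the last was highest there. Without that array the differences were -0.07, -0.02 and 0.04, and over the 3 genes of complex III the median of 0.03 became -0.016, while without runner C it was 0.19.

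In complex IV, 6 of 10 measured genes had a difference above 0, with a median of 0.04 and 0 genes at an unadjusted p under 0.05 by limma. As single arrays were left out that median ran from -0.0050 (runner A) to 0.08 (runner C). When all 20 tested probe sets were taken in place of the brightest, the median was 0.28, and 13 of the 20 were lowest on non-runner B. Cox5b, a nuclear-encoded subunit, measured 692, 458 and 701 in non-runners and 851, 747 and 701 in runners in its brightest probe set (0.32 ± 0.20, limma adjusted p = 0.708), with non-runner C level with runner C. Without non-runner B the difference was 0.13. Its dimmer probe set measured 263, 57.3 and 182 in non-runners and 410.1, 333 and 276 in runners, without overlap, and had the largest difference of any member probe set (1.23 ± 0.49). Without non-runner B that difference was 0.60. Cox6c measured 128, 56.5 and 94.2 in non-runners and 112, 143 and 95.1 in runners (0.36 ± 0.30) and Cox7b, another small subunit, had a difference of 0.25 ± 0.28. Both were lowest on non-runner B, and without it the differences were 0.05 and -0.04. Cox5a lay near the control level, at 22.9, 55.4 and 37.9 in non-runners and 32.9, 38.0 and 37.7 in runners, and only non-runner B exceeded it.

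The tissue isoforms of complex IV were compared with the forms found in most cells. Cox4i1, the general form of subunit 4, measured 2598, 3069.7 and 2688 in non-runners and 2539, 2596 and 2579 in runners in its brightest probe set (-0.03 ± 0.14). The groups did not overlap in deposited intensity but differed by little. Without non-runner B the difference after quantile normalization was 0.03, although every runner still lay below the other non-runners in deposited intensity. With all 6 arrays and no quantile normalization the difference was -0.11. Cox4i2, the form known from lung and from cells at low oxygen, measured 187, 243 and 175 in non-runners and 214, 211 and 201 in runners (0.05 ± 0.17). Its groups overlapped, with non-runner B the highest array. Cox6a1, the general form of subunit 6a, measured 1793, 1962 and 2018 in non-runners and 1900.0, 1917 and 1793 in runners (-0.01 ± 0.14) in its brightest probe set, and its dimmer ones had differences of 0.45 ± 0.27 and 0.49 ± 0.37. The other probe sets of Cox4i1 had differences of -0.10 ± 0.15 and 0.34 ± 0.22.

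Cox6a2, the heart and skeletal muscle form of subunit 6a, measured 85.2, 58.9 and 74.6 in non-runners and 66.4, 61.8 and 65.9 in runners in its brightest probe set (-0.17 ± 0.17, limma adjusted p = 0.802). The groups overlapped, as non-runner B was the lowest of all. A second probe set, partly below the control level, measured 58.4, 41.4 and 52.2 in non-runners and 31.2, 37.4 and 46.3 in runners (-0.41 ± 0.18), and another was too dim to test, between 1.2 and 2.0. Of 19 other striated muscle markers measured, 13 lay below the control level on all arrays, among them the cardiac and skeletal myosins Myh2, Myh4, Myh6 and Myh7. Their summed intensity was 569.9 to 759 in non-runners and 484.5 to 668 in runners, and 0 of the 19 were at 0 on all arrays. Their part in the Cox6a2 values was not tested.

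Cox8a, the general form of subunit 8, measured 2828, 2875 and 2931 in non-runners and 2940.1, 2842 and 2628 in runners in its brightest probe set (0.03 ± 0.14), with overlapping groups. Cox8b, the form known from heart, skeletal muscle and brown fat, measured 335, 169 and 342 in non-runners and 366, 362 and 178 in runners (0.10 ± 0.37), and 242, 112 and 301 in non-runners and 272, 292 and 259 in runners (0.43 ± 0.34) in a second probe set. Non-runner B was lowest in both, and runner C was close to it in the first only. The difference of the first probe set changed sign without non-runner B, to -0.24, and that of the second was 0.00.

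In ATP synthase, 5 of 8 measured genes had a difference above 0 and the median was 0.04. That median changed sign to -0.05 without non-runner B, -0.013 without runner A and -0.038 with array quality weights, each with 3 of 8 above 0, and it was 0.10 without runner C. Atp5f1c, the gamma subunit that turns inside the catalytic head, was the 1 member gene with an unadjusted p under 0.05 in the lower direction, against 4.44% of all genes. It measured 406, 469.5 and 416 in non-runners and 370.5, 334 and 291 in runners, and the groups did not overlap. The difference was -0.39 ± 0.16 (log2, SE), non-runners being 1.31-fold above runners, with a limma adjusted p = 0.589. It stayed between -0.47 and -0.30 as each array was left out, but the unadjusted p exceeded 0.05 without any 1 array other than runner A. Only 1 probe set reports this gene, so it has no second measurement.

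Other subunits of the catalytic head had differences nearer to 0. Atp5f1b, the catalytic beta subunit, measured 1277, 1272 and 1275 in non-runners and 1344, 1159 and 1162 in runners (-0.03 ± 0.14, limma adjusted p = 0.961), and Atp5f1a, the alpha subunit, had a difference of 0.04 ± 0.15. Atp5f1d, the delta subunit of the head, had differences of 0.03 ± 0.18 and 0.21 ± 0.19. Whether Atp5f1c differs from these subunits was not tested. Atp5po, a stalk subunit that holds the head still, measured 788, 1131 and 993 in non-runners and 945, 848 and 741 in runners in its brighter probe set (-0.15 ± 0.17) and 622, 355 and 635 in non-runners and 579, 523 and 567 in runners in the dimmer one (0.11 ± 0.23). Non-runner B was the highest array in the first and the lowest in the second. Atp5pb, Atp5pd and Atp5pf, also of the stalk, had differences of 0.09 ± 0.15, 0.13 ± 0.23 and 0.10 ± 0.16 in their brightest probe sets.

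Several of these genes gave different answers from different probe sets, and non-runner B was often low in one and not in another. Of 17 member genes with 2 or more tested probe sets, 7 had probe sets of opposite sign, namely Atp5po, Cox4i1, Cox6a1, Idh2, Ndufv3, Suclg1 and Uqcrfs1. Non-runner B was the lowest of the 6 arrays in 34 of 58 member probe sets, or 58.6%, against 27.8% of all probe sets, and the highest in 10 of 58 against 30.6%. Its intensity was under 0.5 times the median of the other 5 arrays, with a pseudocount of 2.4, in 14 of the 58, or 24.1%, against 5.15% of all. Those 14 belonged to 10 genes: Dlat, Cox5b, Cox8a, Ndufv2, Uqcrfs1, Cs, Idh2, Cox8b, Cox6a1 and Pdha1.

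Cox8a was the clearest case. Its brightest probe set read 2875 on non-runner B, within the 2628 to 2940.1 of the other arrays. A second probe set read 2785, 441 and 2388 in non-runners and 2768, 2734 and 2508 in runners, so that non-runner B lay -2.63 on the log2 scale from the median of the others. The remaining ones lay -1.60 and -1.25 from it. The differences between the groups were 0.92 ± 0.61, 0.61 ± 0.39 and 0.47 ± 0.31 in these 3 probe sets, and 0.09, 0.12 and 0.11 without non-runner B. Cox6a1 showed the same split, with non-runner B at 0.05 in the brightest probe set and -1.06 and -1.38 in the others. The high 3'/5' control ratios of non-runner B go with these values, and their part in them was not tested.

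**Figure D3:**
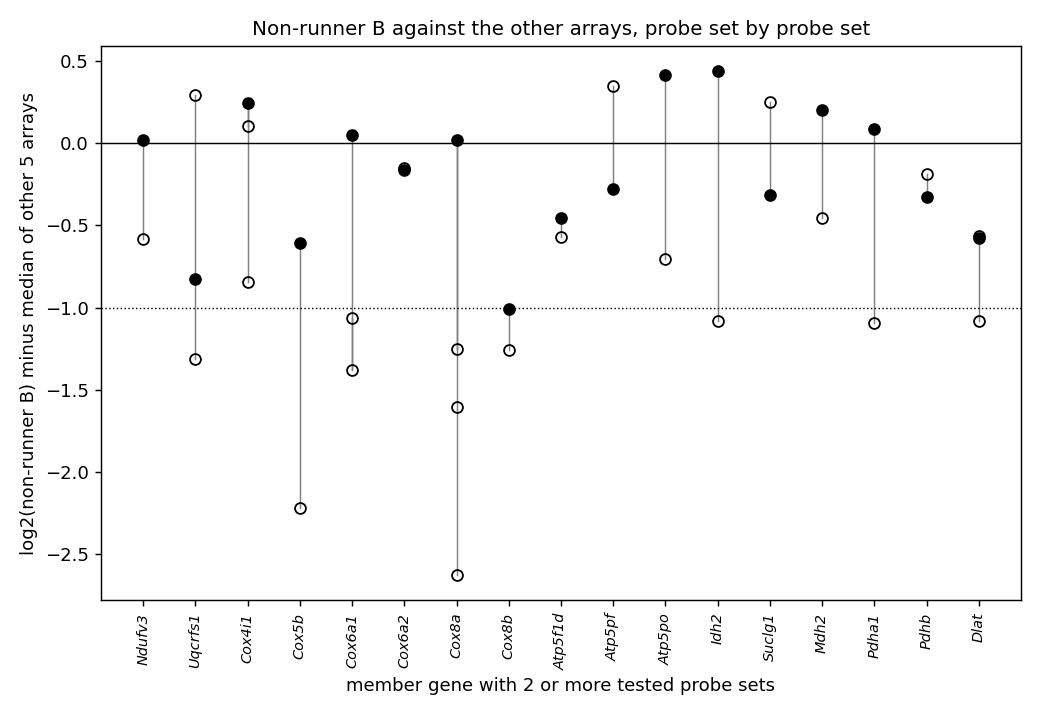
Log2(intensity + 2.4) on non-runner B minus the median of the other 5 arrays (y axis) for each tested probe set of the 17 member genes with 2 or more (x axis). Filled points are the brightest probe set, open points the others, lines join probe sets of a gene, and the dotted line marks 0.5 times the level of the other arrays. Cox8a spans from 0.02 to -2.63.

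The list as a whole also varied from array to array, though not every group in the same way. Each gene was centred on its mean over the 6 arrays, and the mean of the 35 genes was -0.20 on non-runner B and -0.12 on runner C, whereas it was 0.01 and 0.04 on the other non-runner arrays and 0.14 and 0.13 on the other runner arrays. Runner C held the lowest value of 12 member probe sets (20.7%, against 11.1% of all probe sets) and the highest of 0 (against 19.1% of all). Runner A held the highest value of 21 of the 58, against 11.1% of all probe sets. Cytochrome oxidase, the cycle, complex I, complex III and the pyruvate dehydrogenase complex each had their lowest mean on non-runner B. For pyruvate dehydrogenase the non-runner means were -0.11, -0.31 and -0.10, and runner C (-0.03) lay above all of them. ATP synthase was lowest on runner C (-0.16, against -0.06 on non-runner B), as was the 1 gene of complex II (-0.17, against -0.03).

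Brown fat markers were low on the same arrays. Of 8 measured markers that are not on the list, 6 lay above the control level on at least 1 array (Dio2 and Gk did not), and 0 were at 0 on all arrays. Their summed intensity was 1572 on non-runner B and 1748 on runner C, and 2236 to 2933 on the other 4, so the groups overlapped. Ucp1, the uncoupling protein of brown fat, measured 1407, 764 and 1582 in non-runners and 1191, 1529 and 881 in runners, and Cidea, a lipid droplet protein of brown fat, 630.2, 424 and 619 in non-runners and 487, 595 and 354 in runners. Markers of fat in general summed to 3091 on non-runner B and 3712 to 4457 elsewhere, with Plin1 below the control level throughout. The log2 sum of the brown fat markers was added as a covariate after seeing the data. In that fit the median of the 35 genes was 0.07. Limma placed 20 of 58 member probe sets higher and 1 lower at an unadjusted p under 0.05, against 7.44% of all probe sets higher. Of all 5244 probe sets, 329 were lower at that level. Under that covariate 0 probe sets had a limma adjusted p under 0.05. The marker sum was lowest on non-runner B, the array with the highest 3'/5' control ratios. This fit therefore cannot tell fat content from whatever else sets that array apart, and the part of fat tissue was not tested. With the beta-actin ratio as the covariate instead, limma placed 1 of 58 member probe sets higher and 1 lower at an unadjusted p under 0.05. Of all 5244 probe sets that fit placed 2.73% higher and 155 lower.

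**Figure D4:**
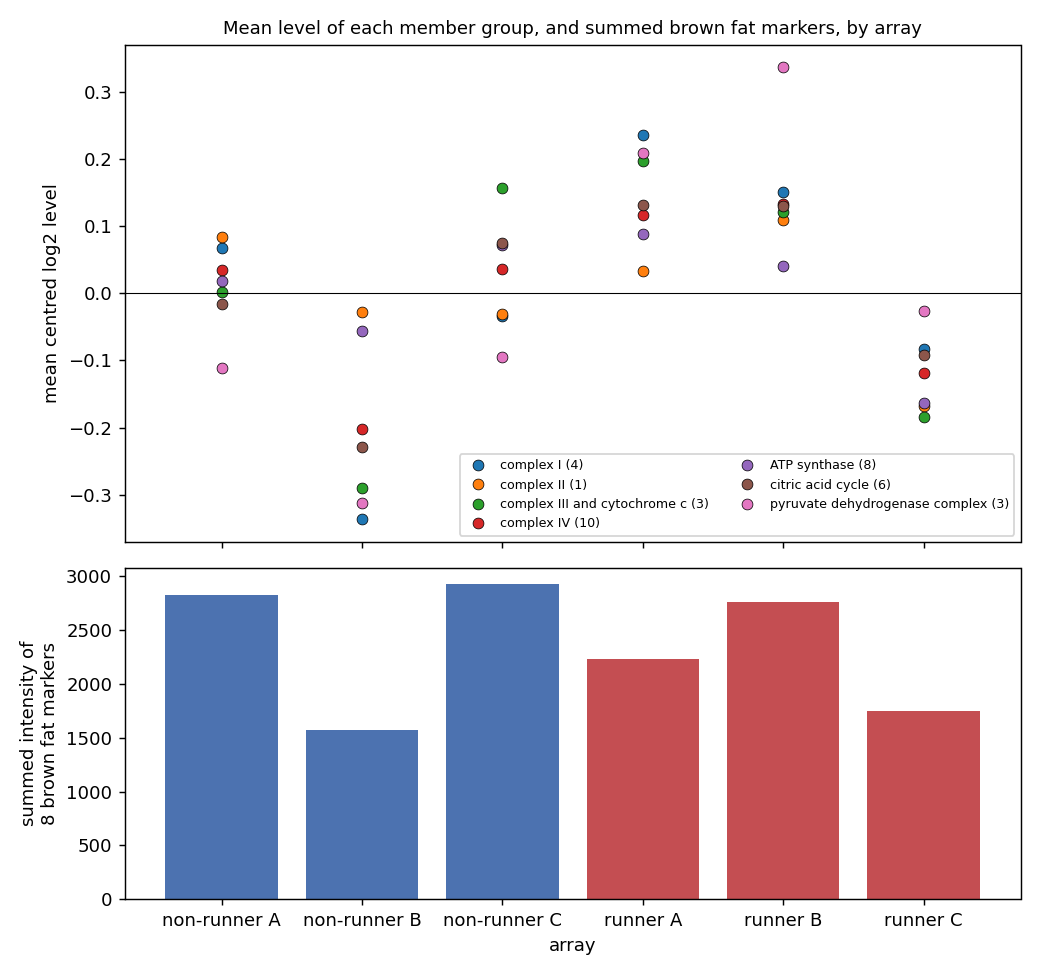
Upper panel, mean centred log2 level (y axis) of the measured genes of each complex or pathway on each array (x axis), with the number of genes in brackets. Lower panel, summed intensity of 8 brown fat markers that are not on the list. Non-runner B and runner C have the lowest sums, 1572 and 1748, and the 35 genes together are also lowest there.

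The rest of the pathway was read from lists of genes that are no members. Among other subunits of the chain and ATP synthase, 29 of 56 listed genes were tested, 20 had a difference above 0, the median was 0.06, and 0 had an unadjusted p under 0.05 by limma. Uqcr11, a small subunit of complex III, was the 1 gene of these 29 whose groups did not overlap. Over all genes the share was 6.15% with runners higher and 8.13% with runners lower. Uqcr11 measured 836, 336 and 827 in non-runners and 1045, 1068 and 867 in runners (0.69 ± 0.34). Non-runner B was far the lowest, and the difference was 0.25 without it. Ndufb1 and Ndufa3, accessory subunits of complex I, had differences of 0.52 ± 0.26 and 0.39 ± 0.21, with overlapping groups. Ndufb1 was 0.26 without runner C, its highest array, and Ndufa3 was 0.18 without non-runner B, its lowest.

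Carriers and channels of the mitochondrial membranes had a median of 0.17 over 14 tested genes, 2 of them higher at an unadjusted p under 0.05 by limma and 0 lower, against 2.93% and 4.44% of all genes. Slc25a1, which exports citrate to the cytosol, measured 624, 571 and 743 in non-runners and 988, 963 and 1012 in runners, without overlap (0.64 ± 0.15, limma adjusted p = 0.36). Vdac1, the pore of the outer membrane, measured 51.0, 25.8 and 52.3 in non-runners and 90.8, 95.8 and 78.0 in runners (1.02 ± 0.26, limma adjusted p = 0.381), with non-runner B below the control level. Slc25a10, the dicarboxylate carrier, had a difference of 0.28 ± 0.18 in its brightest probe set, with overlapping groups. Its dimmer probe sets had differences of 0.79 ± 0.29 and 0.41 ± 0.16, both without overlap (limma adjusted p = 0.581 for each). Slc25a4, the ADP/ATP carrier of muscle, measured 713, 515 and 697 in non-runners and 720.0, 819 and 721 in runners (0.23 ± 0.17), also without overlap. Without non-runner B, the lowest array, that difference was 0.09.

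Other enzymes around pyruvate and the cycle had a median of 0.24 over 14 tested genes, 12 of them above 0, against 46.3% of all genes. By brightest probe set, limma placed 4 higher and 0 lower at an unadjusted p under 0.05, against 2.93% and 4.44% of all genes. After adjustment 0 passed. The 4 were Me1, Pc, Pdhx and Pdk1. Over all 25 tested probe sets, 9 were higher, all from these 4 genes, and 1 lower, against 3.87% and 4.21% of all probe sets. The lower one belonged to Glud1 (-0.84 ± 0.31), without overlap. The brightest probe set of Glud1 had a difference of 0.16 ± 0.15 and another -0.30 ± 0.19, both with overlapping groups. Me1, the cytosolic malic enzyme, which makes pyruvate and NADPH from malate, measured 387, 449.6 and 516 in non-runners and 896, 864 and 883 in runners (limma adjusted p = 0.214). Pc, pyruvate carboxylase, which makes oxaloacetate, measured 116, 162 and 200.4 in non-runners and 290.5, 278 and 300.1 in runners (0.89 ± 0.21, limma adjusted p = 0.36). For both genes every runner array lay above every non-runner array. Pdk1, a kinase that switches pyruvate dehydrogenase off, measured 46.0, 48.3 and 50.5 in non-runners and 69.2, 61.2 and 68.3 in runners, without overlap, and Pdk4, another such kinase, 91.0, 31.1 and 85.2 in non-runners and 81.5, 106 and 70.9 in runners with overlap and lowest on non-runner B. Regulators of mitochondrial genes were thinly covered, with 4 of 19 tested and all 4 below 0 (median -0.32). Of all 3173 tested genes 1704 were below 0. Mfn2 was nearest to 0, at -0.02 ± 0.15 in its brightest probe set. Ppard, a nuclear receptor of fatty acid use, measured 151, 135 and 113 in non-runners and 96.2, 102 and 105 in runners (-0.38 ± 0.16), but a second probe set, low on non-runner B, had a difference of 0.62 ± 0.40. Esrra, a nuclear receptor that works with the coactivator PGC-1alpha, measured 53.6, 46.5 and 43.0 in non-runners and 56.4, 41.5 and 27.6 in runners (-0.25 ± 0.27), with runner C below the control level. Without runner C that difference was 0.05. Opa1 lay below the control level on all arrays. Ppargc1a, Tfam and Nrf1, the best known of these regulators, were on that list but were not measured. No probe set gave any of them as its only symbol.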

How the data were processed

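Each Affymetrix array gave 1 table column of deposited values per probe set, which were treated as linear intensities. The software and scaling that made these intensities are not given in the sources used here. Quantile normalization was applied to log2(intensity + 2.4), 2.4 being the 10th percentile. Control probe sets and the dimmest 40% were left out, and limma 3.58.1 in R 4.3.3 compared 3 runner with 3 non-runner arrays over 5244 probe sets, with Benjamini-Hochberg adjustment over all of them and a threshold of 0.05. Genes were named from the platform annotation, where 7006 probe sets have 1 symbol, and a gene was represented by its brightest tested probe set. Overlap of groups was judged on deposited intensities. With 3 arrays against 3, an exact permutation test of 1 gene cannot give a p below 0.1. The members and lists were chosen with earlier results of these data known. Array values were given for the 8 higher and the 8 lower member genes with the smallest unadjusted p, for the isoform pairs of complex IV and for 1 catalytic or entry gene per group, and in other lists for up to 3 genes with the smallest p and a few regulators. The procedure was tested on simulated data with independent noise, no deviating array and planted changes larger than the difference of any member's brightest probe set. That test therefore does not show how well differences like those of the members would be found. Alternatives were other pseudocounts (1 and 16), scalings, filters, weights and covariates, a replicate block, and leaving out each array.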

Additional observations from a re-analysis of the deposited data

How the results depend on the processing

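No member probe set passed an adjusted p of 0.05 in any alternative run, while over all probe sets 0 to 4 did as each array was left out. Of the values of named members under the alternatives, 432 of 473 kept their sign and 41 changed it. Without quantile normalization Cox8a was -0.039, and with arrays centred on their medians Cox8a was -0.087 and Cyc1 -0.0056; that centring moved the median of all probe sets to -0.04 and left 19 of 35 member genes above 0. With array quality weights the values were 0.00 for Ndufs6, 0.016 for Cox4i1, -0.10 for Cox8b, 0.0006 for Sdha, -0.014 for Cyc1 and 0.068 for Cox5a. With the 3'/5' ratio of beta-actin entered as a covariate they were -0.030 for Cox6c, 0.049 for Atp5po, 0.15 for Idh2, 0.040 for Ndufs6, 0.040 for Cox4i1, 0.0081 for Cox6a1, -0.18 for Cox8b, -0.094 for Ndufv2 and 0.49 for Cox5a. That covariate also gave medians of 0.051 for complex I, 0.18 for the pyruvate dehydrogenase complex and 0.024 for carriers, and 0 member genes lower at an unadjusted p under 0.05 by limma. In that fit 33 of 58 member probe sets lay above 0, in place of 42, against 50.2% of all probe sets. The median over the 20 probe sets of complex IV was -0.0049, in place of 0.28. With each gene taken as the mean over its probe sets, Idh2 was 0.092, Cox4i1 0.068, Cox6a1 0.31 and the median of complex IV 0.26. With the brown fat marker sum as a covariate, chosen after seeing the data, 6 of 35 member genes (17.1%) were higher at an unadjusted p under 0.05 by limma, against 5.36% of all genes in that fit, in which 719 in place of 424 probe sets passed that level.

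As each array was left out, member genes at an unadjusted p under 0.05 numbered 0 to 2 higher (2 without non-runner C, 0 without non-runner A, non-runner B, runner A or runner B) and 0 to 1 lower. Of all genes, 3.71%, 3.41% and 3.43% were higher at that level without non-runner A, B and C. The shares were 1.77%, 2.03% and 1.74% without runner A, B and C. Medians ran from -0.0029 to 0.17 for all members, -0.016 to 0.19 for complex III, -0.053 to 0.099 for ATP synthase, -0.0050 to 0.076 for complex IV, 0.054 to 0.14 for the cycle, -0.035 to 0.15 for other chain genes and -0.44 to -0.11 for regulators. They ran from 0.066 to 0.38 for complex I, 0.076 to 0.21 for carriers and 0.12 to 0.35 for other enzymes around the cycle, these 3 each lowest without non-runner B. Single genes that changed sign ran from -0.14 to 0.013 (Ndufs6), -0.16 to 0.047 (Idh3g), -0.074 to 0.029 (Cox4i1), -0.086 to 0.0048 (Atp5f1b), -0.040 to 0.20 (Cox4i2), -0.030 to 0.029 (Cox6a1), -0.0047 to 0.066 (Cox8a), -0.24 to 0.44 (Cox8b), -0.057 to 0.54 (Ndufv2), -0.075 to 0.064 (Sdha), -0.016 to 0.11 (Cyc1) and -0.37 to 0.25 (Cox5a). The causes of these changes were not tested. Array letters are shared between the groups, though the labels also give the runner chips as D, E and F. Deviations of same-letter arrays correlated at -0.09 to -0.04 over probe sets, and those of other letter pairs at -0.01 to 0.07. With so few arrays these values cannot show whether same-letter arrays were handled together. With the replicate block, limma gave 0 member genes lower at an unadjusted p under 0.05, and 359 in place of 424 probe sets passed that level. Probe sets near the control level, such as those of Cox5a and Cox6a2, have little signal over background.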
